A study of Mus musculus with 24 samples.

Results

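The Cyp4a genes encode cytochrome P450 enzymes that hydroxylate the terminal (omega) carbon of fatty acids. The 6 genes described here were Cyp4a10, Cyp4a14, Cyp4a12a, Cyp4a12b, Cyp4a31 and Cyp4a32, taken by symbol from the 54532 genes of a liver RNA-seq count table. Each symbol matched 1 row of that table, and all 6 genes passed the filter on low counts in every comparison. The libraries came from 24 livers of males collected after a 24 h fast, 4 biological replicates for each of 6 genotypes. By the study's methods the mice were of a C57/BL6J background and 8 to 10 weeks old. Rab30L-/- livers had lost Rab30, a small GTPase of the Golgi, and Cpt2L-/- livers had lost Cpt2, which carries out the last step of long-chain fatty acid entry into mitochondrial oxidation. DKO livers had lost both genes. In these 3 groups the deletion was made by a Cre transgene under the albumin promoter, so cells other than hepatocytes kept the floxed alleles. The ff;ff controls carried floxed alleles of both genes without Cre. Rab30KO mice had exon 4 of Rab30 deleted in every tissue, and their littermates (Rab30 Ctrl) were the reference. By the labels the ff;ff mice were littermates of the DKO mice, and the littermates of Rab30L-/- and Cpt2L-/- mice were not analysed here. Only DKO against ff;ff and Rab30KO against Rab30 Ctrl are therefore littermate comparisons. In every other one, DKO against Rab30L-/-, DKO against Cpt2L-/- and the interaction included, a difference between lines and an effect of the deletion cannot be told apart.

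Omega-hydroxylation turns a fatty acid into a hydroxy acid, which alcohol and aldehyde dehydrogenases oxidize to a dicarboxylic acid, and peroxisomes then shorten that product. The route is a minor one in the fed liver and becomes more active when mitochondrial oxidation is limited or when fatty acids flood the liver, as in fasting. The lipid-activated nuclear receptor Ppara is the main known inducer of Cyp4a10 and Cyp4a14, whereas Cyp4a12a is known as a gene of the male liver, controlled by androgen and growth hormone.

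All 6 genes lie in a cluster of 322.6 kb on chromosome 4 of GRCm38. Cyp4a12a (ENSMUSG00000066071) spans chr4:115299046-115332815 and Cyp4a12b (ENSMUSG00000078597) spans chr4:115411624-115439034, both on the plus strand. Cyp4a14 (ENSMUSG00000028715) spans chr4:115486200-115496142 on the minus strand. The plus strand then holds Cyp4a10 (ENSMUSG00000066072) at chr4:115518264-115533649, Cyp4a31 (ENSMUSG00000028712) at chr4:115563649-115579015 and Cyp4a32 (ENSMUSG00000063929) at chr4:115600969-115621602. The floxed Cpt2 gene lies on the same chromosome, 7.38 Mb before the cluster.

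Because reads of near-identical paralogs can be counted on the wrong gene, the coding sequences of the GENCODE M21 transcripts were compared first. Cyp4a12a and Cyp4a12b were identical at 98.5% of 1524 aligned coding bases. Cyp4a10 matched Cyp4a32 at 97.2% and Cyp4a31 at 96.6% of 1527 bases, while Cyp4a14 was no more than 76.4% identical to any other member. The stretches below are the 60-base coding windows, within 1 exon, in which the members of each close set differ at the most positions. They show how few bases tell these transcripts apart. Capitals mark the positions at which the set differs, and every window is read on the plus strand. In exon 6, Cyp4a12a (chr4:115326628-115326687) and Cyp4a12b (chr4:115432881-115432940) differed at 4 of 60 positions.
Cyp4a12a: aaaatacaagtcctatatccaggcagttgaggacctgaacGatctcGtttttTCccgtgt
Cyp4a12b: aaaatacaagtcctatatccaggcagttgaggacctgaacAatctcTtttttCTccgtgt
In exon 2, Cyp4a10 (chr4:115519640-115519699), Cyp4a31 (chr4:115565020-115565079) and Cyp4a32 (chr4:115602270-115602329) differed at 9 of 60 positions.
Cyp4a10: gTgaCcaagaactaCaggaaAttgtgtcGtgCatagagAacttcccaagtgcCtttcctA
Cyp4a31: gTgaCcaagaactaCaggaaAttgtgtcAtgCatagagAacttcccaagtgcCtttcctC
Cyp4a32: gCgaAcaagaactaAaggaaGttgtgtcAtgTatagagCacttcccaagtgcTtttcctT
Of all 100-base stretches of the Cyp4a12a transcript, 35.8% were also present in Cyp4a12b. The share was 12.7% for Cyp4a10, 8.2% for Cyp4a31 and 20.1% for Cyp4a32, each with another member of that set, and 0.0% for Cyp4a14. With 50-base stretches the share for Cyp4a14 was 0.2%, all of it in the pseudogene Cyp4a30-ps. Each comparison below therefore also gives the 2 close sets with their paralogs summed.

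Library totals ranged from 11801027 to 24497738 counts. The 9 hepatocyte markers in the table summed to between 50060 and 131564 CPM (counts scaled to library size) in every library. That sum was lower in Cpt2L-/- (50060 to 58423) and DKO (64637 to 79272) than in ff;ff livers (99979 to 131564). The Rab30L-/- livers (83547 to 99225) also lay below ff;ff. The most abundant markers weigh most in such a sum. Over the 9 markers the median log2 fold change against ff;ff was -0.37 in Cpt2L-/-, -0.59 in DKO and -0.09 in Rab30L-/- livers. In any library 8 Kupffer cell markers summed to no more than 1331 CPM and 8 bile duct markers to no more than 57.7 CPM. Whole-gene counts of the targeted genes did not separate all labels. Cpt2 differed by -0.07 (log2) between Cpt2L-/- and ff;ff livers, while it was lower in DKO than in Rab30L-/- livers (-1.07, adjusted p = 0.000449, edgeR) and stood at 0.73 in Rab30L-/- against ff;ff livers (adjusted p = 0.0772), without overlap in either. Rab30 was 3.23 higher in DKO than in Rab30L-/- livers (log2, adjusted p = 0.000325, edgeR), although both groups are labelled as lacking it, and 1.99 higher in Cpt2L-/- than in ff;ff livers (adjusted p = 2.66e-05). It differed by 0.15 between DKO and Cpt2L-/- livers, by -1.10 between Rab30L-/- and ff;ff livers and by -0.34 between Rab30KO and Rab30 Ctrl livers, with overlap in each. The table holds whole-gene counts, while the Rab30 deletion concerns 1 exon and the study's methods do not describe the Cpt2 allele. The study itself presented liver qRT-PCR of both genes, Cpt2L-/- and DKO mice included, and a Rab30 immunoblot of its liver knockouts. Why either gene's counts did not follow all labels was not tested. The groups below are those of the labels.

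Cyp4a14 and Cyp4a10 made up 75.6% to 96.6% of the family's counts in every library, and the 6 genes together took between 0.219% and 3.04% of all counts. Cyp4a14, the member with the highest level in any library, ran from 251 to 7665 FPKM (fragments scaled to transcript length and library size, so that genes can be compared). Cyp4a10 ranged from 468 to 4449 FPKM. The other 4 genes were far lower, with Cyp4a12a between 71.7 and 259 FPKM, Cyp4a32 between 35.6 and 255, Cyp4a31 between 1.66 and 118 and Cyp4a12b between 3.52 and 92.4. In bulk tissue, fewer cells of a type and less RNA per cell cannot be told apart.

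**Figure D1:**
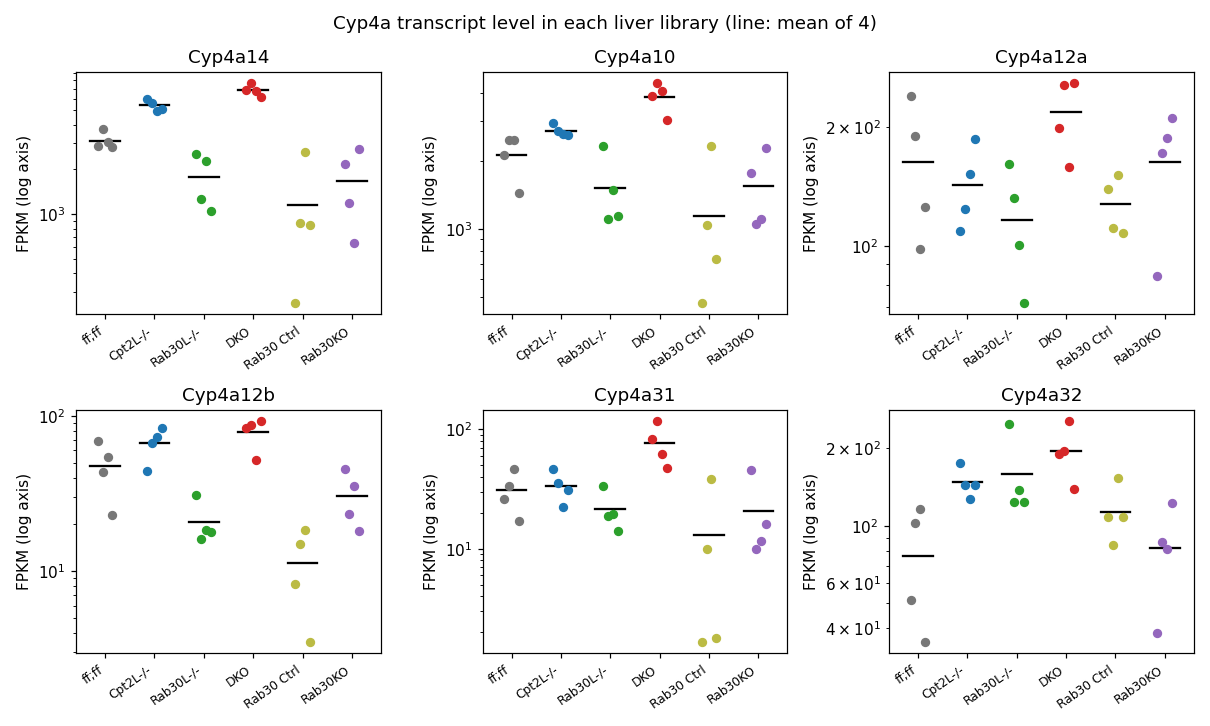
FPKM of each Cyp4a gene (log axis, a panel a gene) in the 24 livers by genotype group, with points for libraries and a line for the mean of 4. The 4 DKO and 4 Cpt2L-/- points of Cyp4a14 sit between 4933 and 7665 FPKM, above all other libraries, whereas those of Cyp4a12a overlap with the ff;ff and Rab30L-/- points.

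Cyp4a14 measured 2892, 3736, 3041 and 2824 FPKM in the ff;ff livers and 5967, 5612, 4933 and 5121 FPKM in the Cpt2L-/- livers. It measured 2555, 1269, 2287 and 1051 FPKM in Rab30L-/- livers against 6831, 7665, 6713 and 6140 FPKM in DKO livers. The 4 groups did not overlap with their neighbours in the order DKO, Cpt2L-/-, ff;ff and Rab30L-/-. In the whole-body line the spread was much wider, with 251, 875, 2626 and 841 FPKM in Rab30 Ctrl and 2165, 1182, 642 and 2747 FPKM in Rab30KO livers. The mean levels of Rab30L-/- (1791 ± 742, SD, n = 4), Rab30KO (1684 ± 949) and Rab30 Ctrl (1148 ± 1026) livers did not differ beyond their spread.

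Cyp4a10 followed the same order at the top. Its levels were 3895, 4449, 4095 and 3044 FPKM in DKO livers, 2954, 2709, 2649 and 2608 in Cpt2L-/- livers and 2133, 2474, 2481 and 1451 in ff;ff livers, with no overlap between neighbours. Rab30L-/- livers held 2328, 1106, 1486 and 1142 FPKM and overlapped with ff;ff. The Rab30KO livers, with 1766, 1051, 1105 and 2295 FPKM, overlapped with both Rab30L-/- and Rab30 Ctrl livers (468, 1042, 2347 and 734 FPKM).

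The ratio of these 2 genes also differed between groups. Cyp4a14 FPKM was 198% ± 8.97 (SD, n = 4) of Cyp4a10 FPKM in Cpt2L-/- livers, 178% ± 16.3 in DKO and 151% ± 31.4 in ff;ff livers. It was 118% ± 26.1 in Rab30L-/-, 103% ± 30.4 in Rab30KO and 91.0% ± 28.5 in Rab30 Ctrl livers. Across single libraries the ratio ran from 53.6% to 207%, and Cyp4a14 was the lower of the pair only in some libraries without a Cpt2 deletion.

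**Figure D2:**
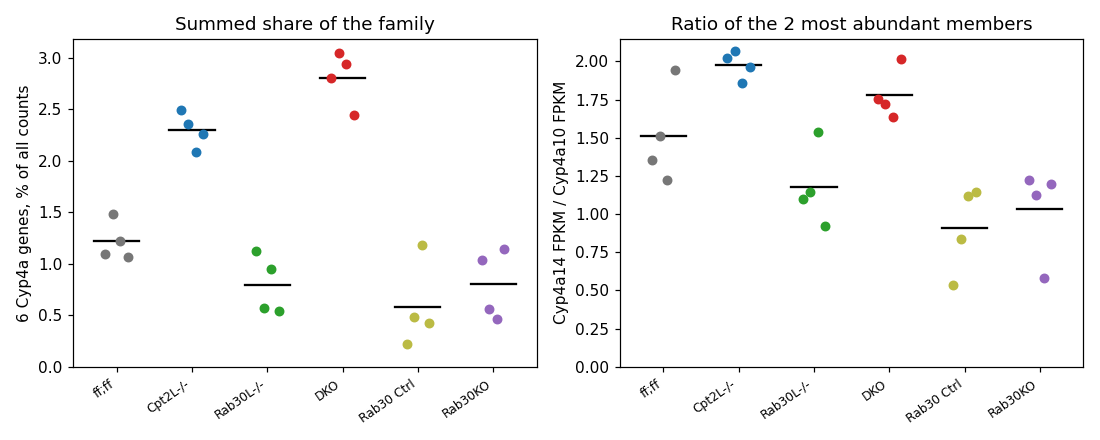
Left, the share of all counts that fell on the 6 Cyp4a genes, in percent; right, the ratio of Cyp4a14 to Cyp4a10 FPKM; points are the 24 libraries and lines the mean of 4. The share lies between 2.08% and 3.04% in all Cpt2L-/- and DKO livers and does not exceed 1.49% in any other library.

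The male-liver pair had different ranges. Cyp4a12a, which hydroxylates fatty acids including arachidonic acid, had mean levels from 117 ± 38.8 FPKM in Rab30L-/- to 218 ± 48.2 FPKM in DKO livers (SD, n = 4), and each group overlapped with the next in the order of means. Its near-identical neighbour Cyp4a12b was highest in DKO (83.0, 87.6, 52.0 and 92.4 FPKM) and Cpt2L-/- livers (44.0, 67.2, 73.6 and 83.1 FPKM). It measured less on average in ff;ff livers (68.9, 43.5, 53.9 and 23.0 FPKM) and Rab30L-/- livers (31.0, 16.02, 18.3 and 18.0 FPKM). Rab30KO livers measured 45.7, 23.4, 35.3 and 18.2 FPKM. The lowest mean was that of Rab30 Ctrl livers (8.28, 14.9, 18.5 and 3.52 FPKM), which overlapped with Rab30L-/- and Rab30KO livers. Cyp4a12b stood at 8.67% ± 4.86 of the Cyp4a12a level in Rab30 Ctrl and at 46.8% ± 5.86 in Cpt2L-/- livers (SD, n = 4), with single libraries between 3.25% and 54.7%.

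Cyp4a31 and Cyp4a32, the less studied neighbours of Cyp4a10, also differed from each other. Cyp4a31 measured 82.9, 118, 62.0 and 47.6 FPKM in DKO livers, all above the Cpt2L-/- livers (46.2, 35.2, 22.6 and 30.9 FPKM). The ff;ff livers, at 26.3, 33.6, 46.85 and 17.1 FPKM, overlapped with Cpt2L-/-. In Rab30 Ctrl livers Cyp4a31 measured 1.66, 10.03, 38.1 and 1.78 FPKM, and the library with the highest value (WT951) was also the highest of its group for Cyp4a10 and Cyp4a14.

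Cyp4a32 had another order of groups than Cyp4a10. DKO livers were highest (191, 196, 255 and 139 FPKM), but Rab30L-/- livers came second (249, 124, 137 and 123 FPKM) and ff;ff livers last (51.55, 102, 116 and 35.6 FPKM). Cpt2L-/- livers followed Rab30L-/- at 176, 144, 127 and 145 FPKM, all above the ff;ff livers. Rab30 Ctrl and Rab30KO livers lay between Cpt2L-/- and ff;ff by their means (113.5 ± 28.8 and 82.3 ± 34.7 FPKM, SD, n = 4), and in this order of 6 groups each overlapped with the next. Relative to Cyp4a10, Cyp4a32 stood at 10.5% ± 0.861 in Rab30L-/- and at 3.42% ± 1.16 in ff;ff livers (SD, n = 4). The deposited length of Cyp4a32, 1536 bases, holds almost nothing beyond its coding sequence of 1527 bases, so reads from any untranslated part would not be counted on it.

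The first comparison asked what the loss of Cpt2 did to the family in livers with intact Rab30. In Cpt2L-/- against ff;ff livers, 1 of 6 genes passed the test (edgeR's quasi-likelihood test, adjusted p under 0.05 and at least 1.2-fold), where 11.9% of the 13270 genes tested were called higher and 23.8% in either direction. At an unadjusted p under 0.05 and 1.2-fold or more there were 2, against 35.7% of all genes. Cyp4a14 rose by 0.79 on the log2 scale (SE 0.17, 95% interval 0.43 to 1.15, adjusted p = 0.00411), which is 1.73-fold. Cyp4a10 differed by 0.35 (SE 0.19, adjusted p = 0.206, edgeR), and although its levels did not overlap between the groups, it did not pass. The same held for Cyp4a32, at 0.95 (SE 0.33, adjusted p = 0.0580). How many of all genes lacked overlap between groups was not counted, here or in the comparisons below. Cyp4a12b (0.50), Cyp4a31 (0.12) and Cyp4a12a (-0.20) had intervals that included 0. The median over the 6 genes was 0.43, beside a median of 0.00 over all genes tested. Summed, Cyp4a12a and Cyp4a12b stood at -0.010 and Cyp4a10, Cyp4a31 and Cyp4a32 at 0.37 (adjusted p = 0.984 and 0.195, edgeR). The call of Cyp4a14 was lost in a fit over all 24 libraries (adjusted p = 0.244, edgeR), and Cyp4a32 was called without the ff;ff library ffff240 or ffff242, by DESeq2 and in the fit over all 24 libraries.

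The second comparison set livers without Cpt2 against livers with it where Rab30 was deleted in both, and it shares no library with the first. In DKO against Rab30L-/- livers, 5 of 6 genes rose, where 14.9% of 13292 genes were called higher and 30.7% in either direction. The same number had an unadjusted p under 0.05 and 1.2-fold or more, against 41.4% of all genes. Cyp4a14 rose 3.77-fold (log2 1.91, SE 0.28, adjusted p = 0.000538, edgeR) and Cyp4a12b 3.73-fold (log2 1.90, SE 0.24, adjusted p = 0.000323). Cyp4a31 rose 3.55-fold (log2 1.83, SE 0.34, adjusted p = 0.00394) and Cyp4a10 2.52-fold (log2 1.34, SE 0.25, adjusted p = 0.00235). Cyp4a12a rose 1.85-fold (log2 0.89, SE 0.25, adjusted p = 0.0195), with overlapping groups. Cyp4a32 did not pass, at 0.28 (95% interval -0.28 to 0.85, adjusted p = 0.438). The median over the 6 genes was 1.58, beside -0.01 over all genes tested. Summed, Cyp4a12a and Cyp4a12b rose by 1.09 (SE 0.24, adjusted p = 0.00589, edgeR) and Cyp4a10, Cyp4a31 and Cyp4a32 by 1.29 (SE 0.25, adjusted p = 0.00287). The call of Cyp4a12a was lost without the Rab30L-/- library Rab30cff979 or without DKO943 (adjusted p = 0.0522 and 0.0527, edgeR), that of Cyp4a31 in a fit over all 24 libraries (adjusted p = 0.0769), and Cyp4a32 was called without Rab30cff741 (log2 0.59, adjusted p = 0.0437). The Cyp4a cluster lies on the chromosome of the floxed Cpt2 allele, and Cyp4a30-ps, an unprocessed pseudogene inside the cluster, had 0 counts in all 12 libraries of the groups that carry this allele (ff;ff, Cpt2L-/- and DKO) and counts above 0 in 10 of the other 12. Alleles of the cluster, or the mapping of reads to it, may therefore differ between these groups. What part such a difference has in the Cyp4a values of DKO against Rab30L-/-, Rab30L-/- against ff;ff, ff;ff against Rab30 Ctrl and the interaction was not tested.

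Whether the second difference exceeded the first was tested as an interaction over the 16 libraries of these groups. By edgeR 0 of 6 genes passed, with 4.06% of 14063 genes called in either direction and 2.20% of the 14063 called higher, while 5 of 6 had an unadjusted p under 0.05 and 1.2-fold or more, against 21.7% of all genes. DESeq2 and limma-voom each called 4, which were Cyp4a10, Cyp4a14, Cyp4a12b and Cyp4a31 in both. The interaction was 1.13 for Cyp4a14 (95% interval 0.45 to 1.81, adjusted p = 0.0553, edgeR) and 1.71 for Cyp4a31 (0.67 to 2.75, adjusted p = 0.0624). It was 1.40 for Cyp4a12b, 1.09 for Cyp4a12a, 0.99 for Cyp4a10 and -0.66 for Cyp4a32. For the summed sets it was 1.11 (Cyp4a12a and Cyp4a12b, adjusted p = 0.0982, edgeR) and 0.93 (Cyp4a10, Cyp4a31 and Cyp4a32, adjusted p = 0.104). Without Rab30cff741 edgeR called the same 4 genes, without ffff248 it called 3 (Cyp4a10, Cyp4a12b and Cyp4a31), without Rab30cff979 it called Cyp4a14 and without DKO943 it called Cyp4a31.

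**Figure D3:**
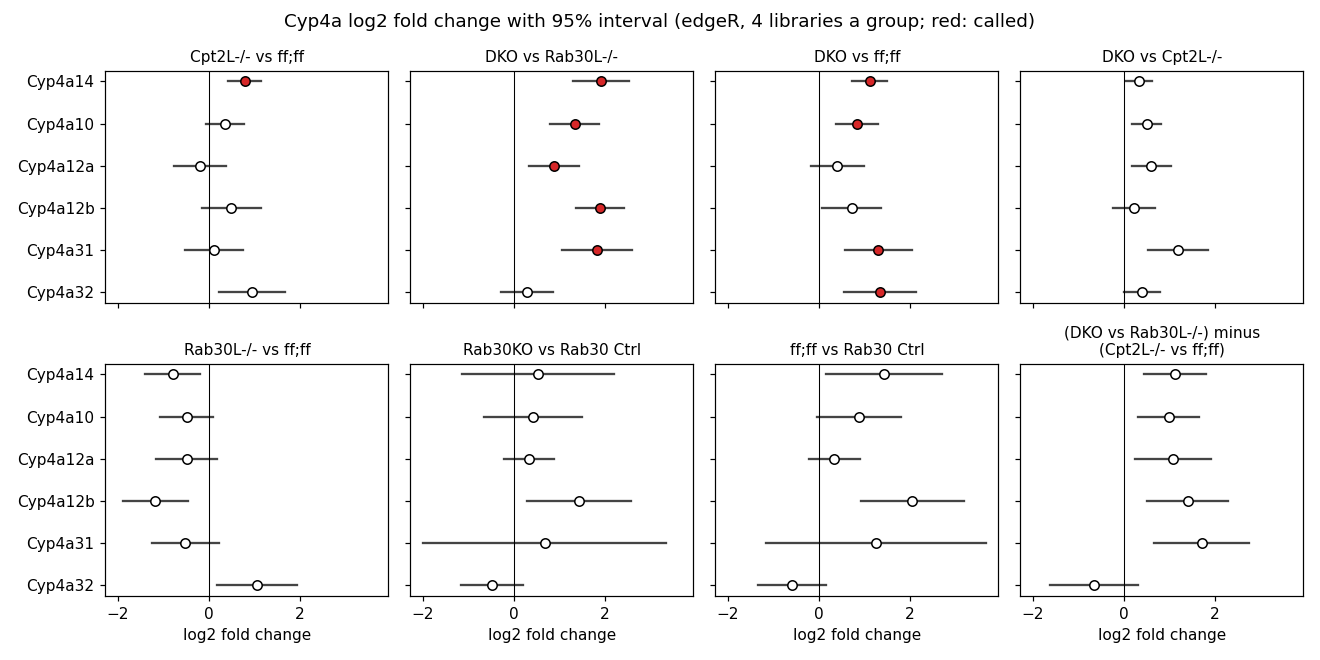
Log2 fold changes (points) with 95% intervals (bars) of the 6 Cyp4a genes in 7 comparisons and the interaction, from edgeR with 4 libraries a group; red points were called. Red points stand only to the right of 0, with 1 in Cpt2L-/- against ff;ff, 5 in DKO against Rab30L-/- and 4 in DKO against ff;ff livers.

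DKO livers were also set against ff;ff livers, the controls of the first comparison, and against Cpt2L-/- livers. Against ff;ff, 4 of 6 genes rose, where 7.87% of 13389 genes were called higher and 16.1% in either direction. An unadjusted p under 0.05 and 1.2-fold or more was reached by 5, against 29.7% of all genes. Cyp4a32 rose 2.54-fold (log2 1.34, SE 0.36, adjusted p = 0.0290, edgeR), Cyp4a31 2.48-fold (log2 1.31, SE 0.33, adjusted p = 0.0241), Cyp4a14 2.17-fold (log2 1.12, SE 0.18, adjusted p = 0.00143) and Cyp4a10 by 0.85 (log2, SE 0.21, adjusted p = 0.0178). Cyp4a12b stood at 0.72 (adjusted p = 0.124) and Cyp4a12a at 0.40 (adjusted p = 0.346), and limma-voom called Cyp4a12b as well (log2 1.05, adjusted p = 0.0172). The sum of Cyp4a10, Cyp4a31 and Cyp4a32 rose by 0.87 (adjusted p = 0.0171, edgeR), while that of Cyp4a12a and Cyp4a12b stood at 0.48 (adjusted p = 0.224). The count fell to 2 (Cyp4a10 and Cyp4a14) without DKO232, DKO233 or ffff238, and likewise with no filter on low counts. It fell to 3 without DKO247, when Cyp4a32 did not pass, or ffff240, when Cyp4a31 did not, and to 1 (Cyp4a32) in a fit over all 24 libraries.

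The DKO and Cpt2L-/- livers differ in the Rab30 deletion. By edgeR 0 of 6 genes passed, with 2.71% of 13306 genes called, 1.38% higher and 1.33% lower, while 5 of 6 had an unadjusted p under 0.05 and 1.2-fold or more, against 21.2% of all genes. DESeq2 called 3 and limma-voom 2, and Cyp4a10 and Cyp4a31 were called by both. All 6 estimates were above 0 (higher in DKO), from 0.23 for Cyp4a12b to 1.198 for Cyp4a31 (95% interval 0.54 to 1.86, adjusted p = 0.0652, edgeR). Cyp4a10 stood at 0.50 (95% interval 0.19 to 0.81, adjusted p = 0.0837) and Cyp4a12a at 0.61 (0.18 to 1.03, adjusted p = 0.111). Neither sum passed, with 0.497 for Cyp4a12a and Cyp4a12b and 0.51 for the other set (adjusted p = 0.177 and 0.0831, edgeR). The summed hepatocyte markers were also higher in DKO (64637 to 79272 CPM) than in Cpt2L-/- livers (50060 to 58423 CPM), without overlap. Gene by gene, however, 0 of the 9 markers passed by edgeR, and their median was 0.03 (log2). The part of hepatocyte markers in these estimates was not tested. Without DKO943, the lowest of its group for Cyp4a10 and Cyp4a31, edgeR called those 2 genes.

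Loss of Rab30 in livers with intact Cpt2 was compared in both lines. In Rab30L-/- against ff;ff livers 0 of 6 genes passed by edgeR, with 0.479% of 13367 genes called and 3 of 6 genes at an unadjusted p under 0.05 and 1.2-fold or more, against 11.2% of all genes. DESeq2 called 1 (Cyp4a12b) and limma-voom called 1 (Cyp4a14). The estimates were negative for 5 genes, among them Cyp4a12b at -1.17 (95% interval -1.88 to -0.46, adjusted p = 0.194, edgeR) and Cyp4a14 at -0.80 (-1.40 to -0.19, adjusted p = 0.299). Cyp4a32 alone was positive, at 1.06 (0.17 to 1.95, adjusted p = 0.351). With ffff248 left out, Cyp4a12b passed (log2 -1.40, adjusted p = 0.0430, edgeR). The sum of Cyp4a12a and Cyp4a12b stood at -0.61 and that of Cyp4a10, Cyp4a31 and Cyp4a32 at -0.42 (adjusted p = 0.452 and 0.587, edgeR). In Rab30KO against Rab30 Ctrl livers 0 of 6 genes passed by edgeR, DESeq2 or limma-voom, with 0.0220% of 13656 genes called by edgeR and 1 gene, Cyp4a12b, at an unadjusted p under 0.05 (log2 1.43, 95% interval 0.29 to 2.57), which 2.21% of all genes reached with at least 1.2-fold. The interval of Cyp4a31, the widest of the 6, ran from -1.99 to 3.36. The sums stood at 0.46 (Cyp4a12a and Cyp4a12b) and 0.38 (the other set), and neither passed.

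The controls of the 2 lines were compared as well. In ff;ff against Rab30 Ctrl livers 0 of 6 genes passed by edgeR, with 0.949% of 13587 genes called, 2 of 6 at an unadjusted p under 0.05 and 1.2-fold or more (13.2% of all genes), 1 called by DESeq2 and 0 by limma-voom. Cyp4a12b stood at 2.06 (95% interval 0.93 to 3.19, adjusted p = 0.104, edgeR) and Cyp4a14 at 1.43 (0.16 to 2.70, adjusted p = 0.309), and neither gene's levels overlapped between the groups. With its close paralog Cyp4a12a added, the value of Cyp4a12b became 0.59 (adjusted p = 0.328, edgeR), and the sum of Cyp4a10, Cyp4a31 and Cyp4a32 stood at 0.83 (adjusted p = 0.416). Without WT951, Cyp4a14 (log2 2.23, adjusted p = 0.0308, edgeR) and Cyp4a10 (log2 1.49, adjusted p = 0.0425) passed. In the same comparison 4 of 8 Kupffer cell markers fell, while 0 of 8 endothelial markers passed by edgeR. The summed Kupffer markers (169 to 306 CPM in ff;ff and 373 to 616 in Rab30 Ctrl livers) and endothelial markers (257 to 366 and 376 to 466 CPM) did not overlap, and their part in the Cyp4a differences was not tested.

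Across the 24 libraries, Cyp4a10, Cyp4a14, Cyp4a31 and Cyp4a12b varied together. Pearson's r of log2 CPM was 0.96 between Cyp4a10 and Cyp4a14, 0.92 between Cyp4a10 and Cyp4a31 and 0.83 between Cyp4a12b and Cyp4a31. Cyp4a12a reached no more than 0.43 with any member, including its close paralog, and Cyp4a32 no more than 0.44. By Spearman's rho Cyp4a32 was closer to the others, at 0.70 with Cyp4a10, 0.61 with Cyp4a14 and 0.57 with Cyp4a31, while Cyp4a12a reached no more than 0.47. These values describe 24 libraries that fall into 6 groups and share their scaling, and reads shared between paralogs can raise them.

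Outside the family, the genes whose log2 CPM followed Cyp4a10 most closely over the 24 libraries were Ncbp1 (r = 0.90), of the nuclear cap-binding complex, Etf1 (0.90), a translation termination factor, and Eif4g2 (0.89), a translation initiation factor. Those most like Cyp4a14 were the splicing factor Srsf6 (0.88), Mmadhc (0.88), which acts in vitamin B12 metabolism, and Slc22a5 (0.88), the carnitine transporter. The fibroblast growth factor receptor Fgfr3 and the scaffold gene Shank2 ran most opposite to both, at -0.92 and -0.89 for Cyp4a10 and -0.89 and -0.88 for Cyp4a14. Cyp4a12b was most like Uso1 (0.87), a vesicle tether of the Golgi, and Cyp4a31 most like the ubiquitin ligase Arih1 (0.85). For Cyp4a12a and Cyp4a32 the closest genes reached only 0.74 (Rexo5) and 0.72 (Pctp, a phosphatidylcholine transfer protein). The other genes in the first 3 were Khdrbs3 and Adtrp for Cyp4a12a, Etf1 and Plaa for Cyp4a12b, Trip11 and Larp4 for Cyp4a31, and 9830144P21Rik and Atp9a for Cyp4a32, with r from 0.69 to 0.85.

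The other genes of the route were read beside the family, against the 23.8% and 30.7% of all genes called in these 2 comparisons. Of 25 other Ppara targets, 17 rose and 0 fell in Cpt2L-/- against ff;ff livers, with a median of 0.92, and 18 rose and 1 fell in DKO against Rab30L-/- livers, with a median of 0.99. The list includes Cpt2, a targeted gene, and the gene that fell was Cpt2, whose level did not pass in Cpt2L-/- against ff;ff (-0.07) or DKO against ff;ff livers (-0.34, adjusted p = 0.0911, edgeR) and stood at 0.73 in Rab30L-/- against ff;ff livers. The thioesterase Acot2, which frees fatty acids from coenzyme A in mitochondria, rose by 3.97 and 4.31 (log2) in the 2 comparisons. Pdk4, the kinase that shuts off pyruvate dehydrogenase, rose by 3.83 and 6.83, and the lipid droplet protein Cidec by 3.52 and 2.97. The mitochondrial carrier Ucp3 had 33 to 92 counts in Cpt2L-/- and 0 to 1 in ff;ff livers. Cyp4a14, at 0.79 and 1.91, lay below the median of these targets in the first comparison and above it in the second, whereas the interaction had a median of -0.06 over the 25 targets and 1.11 over the 6 Cyp4a genes. Pdk4 had an interaction of 3.01 (SE 0.54, adjusted p = 0.00677, edgeR), and it was the 1 target that rose by this test, while the 1 that fell was again Cpt2 (-0.99, adjusted p = 0.0191).

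Of 22 genes listed for peroxisomal oxidation, not all of which act on dicarboxylic acids, 12 rose and 2 fell in both comparisons, with medians of 0.62 and 0.68. Ehhadh, the bifunctional enzyme of this route, rose by 3.29 and 3.23, the thiolase Acaa1b by 2.22 and 2.39, and Pex11a, which drives peroxisome division, by 1.77 and 2.62. Crot, which makes carnitine esters of shortened chains, rose by 1.45 in the first comparison and stood at 0.62 (adjusted p = 0.0743, edgeR) in the second. Acox2, the oxidase of branched chains and bile acid intermediates, fell by 1.09 and 0.88, and Nudt19 fell by 0.59 in the first comparison and stood at 0.30 in the second.

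Of 16 partners of omega-oxidation, 3 rose and 5 fell in Cpt2L-/- against ff;ff livers, and 4 rose and 5 fell in DKO against Rab30L-/- livers. Aldh3a2, the fatty aldehyde dehydrogenase that completes the oxidation to the dicarboxylic acid, rose by 2.35 and 2.44, more than any Cyp4a gene in either comparison. The fatty acid transporter Slc27a4 rose by 1.40 and 1.18 and the acyl-CoA synthetase Acsl5 by 0.58 and 0.64. Slc27a5, the bile acid and very long chain acyl-CoA synthetase, fell by 1.32 and 0.98. Aldh1a1, a retinaldehyde dehydrogenase, fell by 0.80 in the first comparison and stood at 0.24 in the second. Por, which passes electrons to every microsomal P450, stood at -0.43 (adjusted p = 0.243, edgeR) and -0.12 (adjusted p = 0.626).

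Of 14 other Cyp4 genes, 7 passed the filter, and 0 rose and 3 fell in Cpt2L-/- against ff;ff livers. Cyp4f14 and Cyp4f15, which hydroxylate leukotrienes and other lipids, fell by 2.30 and 1.48, and Cyp4v3 by 0.93. In DKO against Rab30L-/- livers Cyp4f14 fell by 1.81, Cyp4f15 by 0.94 and Cyp4f13 by 0.35, while Cyp4b1 rose by 0.80. Of the Cyp4a genes outside the 6, Cyp4a29 had 0 counts in all 24 libraries and Cyp4a30b no more than 3 in any.

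**Figure D4:**
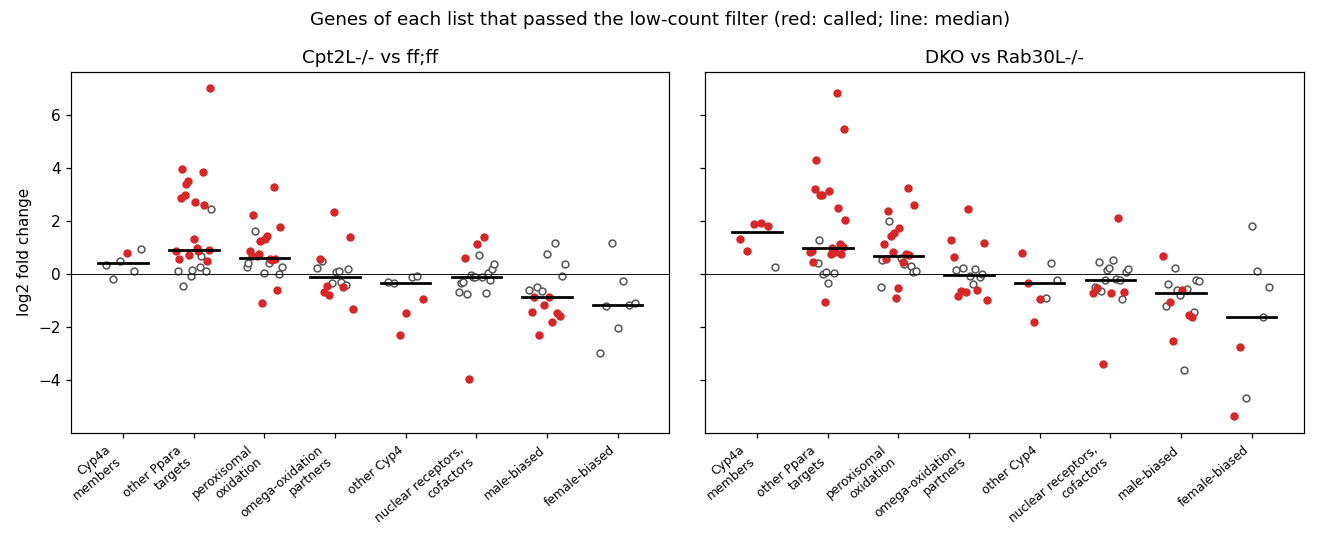
Log2 fold changes of the Cyp4a genes and of 7 gene lists in Cpt2L-/- against ff;ff livers (left) and DKO against Rab30L-/- livers (right), a point for each gene that passed the low-count filter, red where called, with a line at the median. The median of the Cyp4a genes is 0.43 on the left and 1.58 on the right, and that of the other Ppara targets is 0.92 and 0.99.

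Among 18 nuclear receptors and cofactors, 3 rose and 1 fell in Cpt2L-/- against ff;ff livers, and 1 rose and 5 fell in DKO against Rab30L-/- livers, numbers near those of all genes (23.8% and 30.7% called). Ppara itself did not pass in either comparison (log2 0.73, adjusted p = 0.0691, and 0.54, adjusted p = 0.130, edgeR). Pparg, the lipid-storing relative of Ppara, rose by 1.39 and 2.12. The xenobiotic receptor Nr1i3 rose by 1.12 in the first comparison and fell by 0.72 in the second, with an interaction of -1.83 (SE 0.38, adjusted p = 0.0142, edgeR). The corepressor Ncor1 rose by 0.59 in the first comparison and stood at 0.46 in the second. The bile acid-induced repressor Nr0b2 fell by 3.94 and 3.37.

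The male-biased genes of growth hormone control, beside which Cyp4a12a and Cyp4a12b are usually placed, were read against the 11.9% and 15.8% of all genes called lower in these comparisons. Of 15 tested in Cpt2L-/- against ff;ff livers 0 rose and 8 fell (median -0.86), and of 16 tested in DKO against Rab30L-/- livers 1 rose and 5 fell (median -0.70). The steroid hydroxylase Cyp7b1 fell by 2.30 and 2.52, and the pheromone-binding Mup20 fell by 1.81 in the first comparison and stood at -0.54 in the second. Of 16 female-biased genes only 7 passed the filter on low counts in each comparison. Among those tested, 0 passed by edgeR in the first comparison (1 at an unadjusted p under 0.05) and 2 fell in the second. Their medians were -1.17 and -1.61. The filter keeps a low gene that is high in only 1 group, so these medians are not set against those of the male-biased genes.

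Markers of cell types were read in the same comparisons, beside the 23.8% and 30.7% of all genes called in either direction. In Cpt2L-/- against ff;ff livers 3 of 9 hepatocyte markers fell, among them Tat by 1.95 and Alb by 1.41, and in DKO against Rab30L-/- livers 4 of 9 fell. Of 8 Kupffer cell markers 3 fell and 1 rose in the first comparison and 6 fell and 1 rose in the second; Cd68, a lysosomal protein of macrophages, rose by 2.60 and 2.44, while Timd4 fell by 0.93 and 1.54 and Clec4f by 0.69 and 0.90. Summed Kupffer markers ranged from 218 to 644 CPM in Rab30L-/-, 163 to 217 in DKO, 169 to 306 in ff;ff and 177 to 238.3 in Cpt2L-/- livers. Of 8 endothelial markers Clec4g fell by 0.65 in the first comparison, and Oit3 rose by 0.59 in the second with none falling. Of the bile duct markers, Sox9 fell by 2.26 in the first comparison and by 2.01 in the second. Of 8 stellate markers 0 passed by edgeR in the first comparison (1 at an unadjusted p under 0.05), and Colec11 fell by 0.69 in the second. The summed stellate, endothelial and bile duct markers overlapped between the groups compared. Their part in the Cyp4a differences was not tested.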

How the data were processed

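Total RNA of flash-frozen livers was extracted with TRIzol and a column kit, and Novogene made and sequenced the libraries. Raw counts of reads per gene and FPKM values were deposited by the authors; the submitters' processing notes name HISAT2, DESeq2 and GRCm38 (mm10), while the counter, annotation and use of strand are not given in the sources used here. FPKM, per the file headers and the authors' gene lengths, implied library sizes of 0.851 to 1.14 times the column totals. The authors' normalized counts and their tables of fold changes and p-values were not used.

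Counts were filtered by filterByExpr, scaled by TMM and tested in edgeR 4.0.16 (glmQLFit with robust estimation, R 4.3.3), a fit for each comparison, with Benjamini-Hochberg adjustment over all genes tested. A call needed an adjusted p under 0.05 and a 1.2-fold change. Standard errors are the log2 fold change over the root of F. CPM is relative to TMM-scaled totals, and likeness between genes used log2 CPM with a prior count of 2. Libraries of a group differed from each other by more than counting noise (chi-square per gene 13.4 to 109). The same edgeR fit recovered 92% of 200 genes changed 2-fold in simulated counts of Cpt2L-/- and ff;ff libraries, with 11 false calls among 13132 genes. That simulation gave every gene the same dispersion and changed only genes above a limit on mean counts. It therefore does not measure the power for the Cyp4a genes. DESeq2 1.42.0 and limma 3.58.1 were alternatives, beside DESeq2's size factors, a fit over all 24 libraries, no low-count filter, summed paralogs and each library left out in turn. P-values weigh the difference between groups against the spread between livers of a group.

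Besides the 6 genes, Cpt2 and Rab30, the text names the 3 genes most correlated with each member (for the highest 2 also the 2 most opposite) and, from each list, up to 4 called genes that rose and 2 that fell most in Cpt2L-/- against ff;ff livers; Ppara, Por, Cyp4v3, Cyp4f13, Cyp4b1, Oit3, Colec11, Cyp4a29, Cyp4a30b and a pseudogene were named after their values were seen. The result of 1 marker gene is not reported here. The 6 genes and the lists were chosen with earlier results of these data known.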

Additional observations from a re-analysis of the deposited data

Results flagged for a closer look

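In groups of 4 libraries, a value was marked when its gap to the nearest other library exceeded, as a share of the group's range, Dixon's 95% critical value for 4 samples, a limit that chance passes in about 1 of 20 groups. Of 36 gene and group pairs, 3 were marked. Cyp4a12b in the Rab30L-/- library Rab30cff741 measured 31.0 FPKM, beside 16.02 to 18.3 in the other 3, and Cyp4a32 in the same library measured 249 FPKM, beside 123 to 137. Cyp4a31 in the Rab30KO library KO1 measured 46.0 FPKM, beside 9.95 to 16.1 in the other 3 libraries.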

How the results depend on the processing

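No paired analysis was possible because the groups share no replicate numbers. All 36 group levels moved by less than 1 SD when FPKM was replaced by RPKM from TMM-scaled counts. Of 720 values of a single gene under an alternative, 654 kept their direction and side of the threshold, 40 newly passed, 17 no longer passed and 9 changed sign, none of them called in either setting. Scaling by DESeq2's size factors changed no count of genes called. DESeq2's Wald test called 2 genes in Cpt2L-/- against ff;ff, 3 in DKO against Cpt2L-/-, 1 each in Rab30L-/- against ff;ff and ff;ff against Rab30 Ctrl, and 4 in the interaction. Limma-voom called 5 in DKO against ff;ff (Cyp4a12b added), where DESeq2 called 4, 2 in DKO against Cpt2L-/-, 1 in Rab30L-/- against ff;ff and 4 in the interaction. The fit over all 24 libraries called 1 in DKO against ff;ff (Cyp4a32) and 1 in ff;ff against Rab30 Ctrl. With no filter on low counts, 2 were called in DKO against ff;ff, 1 in DKO against Cpt2L-/- and 1 in the interaction. The cause of these shifts was not tested. Leaving out single libraries, the count ranged from 1 to 2 in Cpt2L-/- against ff;ff, 4 to 6 in DKO against Rab30L-/-, 2 to 4 in DKO against ff;ff, 0 to 2 in DKO against Cpt2L-/-, 0 to 1 in Rab30L-/- against ff;ff, 0 to 2 in ff;ff against Rab30 Ctrl and 0 to 4 in the interaction, and it stayed at 0 in Rab30KO against Rab30 Ctrl.

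With paralogs summed, the value shown for Cyp4a32 is that of Cyp4a10, Cyp4a31 and Cyp4a32 together, of which Cyp4a10 holds most counts; it was -0.42 in Rab30L-/- against ff;ff, 0.38 in Rab30KO against Rab30 Ctrl, 0.83 in ff;ff against Rab30 Ctrl and 0.93 in the interaction, each opposite in sign to Cyp4a32 alone. The sum with Cyp4a12a put Cyp4a12b at -0.010 in Cpt2L-/- against ff;ff. In that comparison, leaving out single libraries, Cyp4a12a ranged from -0.38 to 0.050 (above 0 only without ffff238) and Cyp4a31 from -0.081 (without ffff248; -0.072 without Cpt2164) to 0.39. In Rab30KO against Rab30 Ctrl, Cyp4a31 ranged from -0.055 (without KO1, the only value below 0) to 2.22. By Spearman's rho none of the 3 genes most like Cyp4a10, Cyp4a14 or Cyp4a12b stayed among the first 3.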

Other observations

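The unprocessed pseudogene Cyp4a30-ps, which lies inside the cluster at chr4:115343788-115363115 of GRCm38 and was chosen after its values were seen, had 0 counts in all 12 libraries of the DKO, Cpt2L-/- and ff;ff groups. It had 1 to 18 counts in 10 of the other 12 libraries, with 3, 9, 9 and 0 in Rab30L-/-, 0, 1, 16 and 13 in Rab30KO and 7, 7, 7 and 18 in Rab30 Ctrl livers. The first 3 groups carry the floxed Cpt2 allele, which lies on the same chromosome. The counts are low, and whether alleles of the cluster or the mapping of reads to it differ between the lines was not tested.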
